A study of Mus musculus with 24 samples.

Results

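The genes described here are 10 markers of the hepatocytes that surround the central vein of the liver lobule: Glul, Slc1a2, Oat, Rhbg, Axin2, Lgr5, Tbx3, Cyp2e1, Cyp1a2 and Rgn. They were chosen by name, as known pericentral markers and Wnt targets, from a table of read counts with 34436 gene symbols. Earlier results of these data were known when they were chosen. All 10 were in the table and all 10 passed the filter on low counts that left 12595 genes for testing. Blood enters the lobule at the portal tracts and leaves through the central vein, and hepatocytes along this path divide the work between them. Endothelial cells of the central vein release Wnt ligands and R-spondins, beta-catenin is stabilised in the hepatocytes next to them, and those cells switch on a programme of glutamine synthesis, glutamate uptake and xenobiotic metabolism while urea synthesis and gluconeogenesis lie mainly on the portal side. Glul, Slc1a2, Oat and Rhbg belong to the narrow rim of cells that captures ammonia as glutamine, Axin2, Lgr5 and Tbx3 act in or report Wnt signalling, and Cyp2e1, Cyp1a2 and Rgn mark a broader pericentral band.

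RNA was measured in whole livers of wild-type C57BL/6 mice that were 8 to 10 weeks old when an 8-week period on 1 of 5 diets began. The diets were cholic acid with 2% cholesterol (Chol_CA, 4 libraries), cholic acid without added cholesterol (CA, 4 libraries), high sucrose with 2% cholesterol (HS_Chol, 3 libraries), high sucrose (HS, 5 libraries) and normal chow (NC, 4 libraries). Cholic acid is a primary bile acid. The labels number the samples of a diet without saying that each is a separate animal, so p-values measure the spread between these libraries. They also give 1 sample titled as HS a diet of normal chow, and that sample could not be matched to a single library, so all 5 HS libraries were used.

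Total reads per library ran from 6110484 to 10244277. General hepatocyte genes (12 listed, among them Alb) summed to between 80872 CPM (reads per 1000000, scaled by effective library size) in a Chol_CA library and 157699 CPM in an NC library. Relative to each gene's mean over the 20 libraries, read counts rose with transcript length in 12 libraries (a positive trend). They fell with it in 8 (a negative trend): Chol_CA_0, Chol_CA_1, CA_0, HS_Chol_0, HS_0, HS_1, HS_2 and NC_3. This split cut across the diets. It is a property of the libraries and not a batch named in the labels. The rank correlation with length was near 0 in HS_Chol_0 (−0.043) and CA_3 (0.033). Reads on light-strand tRNA genes of the mitochondrial genome, which rise if the opposite strand is counted, came to between 673 and 900 for every 1000000 heavy-strand mRNA reads in HS_Chol and to between 8.95 and 83.4 in the other 17 libraries. In bulk tissue, fewer pericentral cells and less RNA per pericentral cell cannot be told apart.

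In the GRCm38 annotation Glul lies on chromosome 1 (153899944 to 153909723, plus strand), Slc1a2 on chromosome 2 (102658659 to 102790784, plus) and Oat on chromosome 7 (132557478 to 132576398, minus). Rhbg lies on chromosome 3 (88242874 to 88254709, minus), Axin2 on chromosome 11 (108920349 to 108950783, plus), Lgr5 on chromosome 10 (115450311 to 115587780, minus) and Tbx3 on chromosome 5 (119670669 to 119684724, plus). Cyp2e1 lies on chromosome 7 (140763739 to 140774987, plus), Cyp1a2 on chromosome 9 (57676937 to 57683703, minus) and Rgn on chromosome X (20549787 to 20562089, plus). Genes on the opposite strand share 116 exon bases with Glul (Teddm2), 189 with Slc1a2 (Gm13872), 209 with Axin2 (Gm11670) and 115 with Tbx3 (Tbx3os1), and 1190 of the 1937 exon bases of Rhbg also belong to the gene model Gm38392 on its own strand. The partners of Slc1a2 and Axin2 held at most 8 reads and 1 read per library. The level of Rhbg is uncertain to the extent that its reads were assigned to Gm38392 or left out as shared.

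Promoter sequences from RefSeq (GRCm38.p6, 250 bases before to 50 after the start site) were found for 6 of the 10 genes. The set is shown because the Wnt effectors TCF and LEF recognise a core spelled TCAAAG, which was searched for on both strands, and the genes differ in whether this window holds it. The core, in capitals, was in 3 of the 6 promoters, those of Slc1a2 (at −206 and −77 from the start site), Cyp2e1 (−135) and Cyp1a2 (−243), and in 16% of 32851 promoters of the same length. Glul, whose known Wnt-responsive enhancer lies outside this window, is printed for comparison. The start site used for Slc1a2 is inside the gene model, downstream of its first annotated exon. The coordinates are chr1:153899679-153899978 (plus) for Glul, chr2:102706188-102706487 (plus) for Slc1a2, chr7:140763569-140763868 (plus) for Cyp2e1 and chr9:57683606-57683905 (minus) for Cyp1a2.
Glul: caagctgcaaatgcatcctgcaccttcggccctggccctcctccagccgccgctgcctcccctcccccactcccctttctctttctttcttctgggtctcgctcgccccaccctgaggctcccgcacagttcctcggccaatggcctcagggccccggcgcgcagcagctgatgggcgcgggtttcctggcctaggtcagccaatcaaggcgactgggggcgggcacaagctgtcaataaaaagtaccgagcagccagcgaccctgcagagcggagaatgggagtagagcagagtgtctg
Slc1a2: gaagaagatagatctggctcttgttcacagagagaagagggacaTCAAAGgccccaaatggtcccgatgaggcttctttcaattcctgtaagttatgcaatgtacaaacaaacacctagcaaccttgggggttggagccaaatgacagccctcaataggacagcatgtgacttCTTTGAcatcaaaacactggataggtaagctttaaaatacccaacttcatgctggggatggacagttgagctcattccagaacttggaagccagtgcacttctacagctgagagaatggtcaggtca
Cyp2e1: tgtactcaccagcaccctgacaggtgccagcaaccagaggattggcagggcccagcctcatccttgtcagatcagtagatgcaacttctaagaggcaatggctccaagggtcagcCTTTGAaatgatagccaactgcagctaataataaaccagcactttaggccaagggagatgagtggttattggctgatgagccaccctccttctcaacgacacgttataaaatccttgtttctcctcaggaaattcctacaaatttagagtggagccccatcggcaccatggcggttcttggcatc
Cyp1a2: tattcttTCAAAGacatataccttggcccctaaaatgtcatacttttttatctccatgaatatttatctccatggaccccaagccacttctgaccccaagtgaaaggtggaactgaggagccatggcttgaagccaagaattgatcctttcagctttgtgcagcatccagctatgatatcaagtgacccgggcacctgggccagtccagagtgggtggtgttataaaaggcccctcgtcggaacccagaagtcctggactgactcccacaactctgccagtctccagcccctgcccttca
The core binding element of the aryl hydrocarbon receptor, GCGTG or CACGC, was in 0 of the 6 promoters and in 32.4% of all. The HNF4 element CAAAGTCCA or TGGACTTTG was likewise in 0 of the 6 and in 0.475% of all. A match of letters is a description and says nothing about binding.

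The 10 genes covered a wide range of levels. Per kilobase of exon, NC livers held 3808 ± 79.1 CPM per kb of Cyp2e1 (SD, n = 4), 663 ± 148 of Rgn, 436 ± 38.0 of Cyp1a2, 312 ± 27.1 of Glul and 181 ± 40.3 of Oat. Slc1a2 (12.3 ± 2.34 CPM per kb) and Tbx3 (10.9 ± 5.06) came next, and Rhbg (2.47 ± 0.741), Axin2 (2.37 ± 0.808) and Lgr5 (1.14 ± 0.268) were lowest. Between 78 and 562 reads per diet stood behind each level of Axin2 and Lgr5 and between 52 and 203 behind each of Rhbg, so these 3 genes carry the largest counting error.

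With cholic acid alone most of the 10 genes fell. Of the 10, 8 were lower and 0 higher in CA than in NC livers at a Benjamini-Hochberg adjusted p under 0.05 in edgeR's quasi-likelihood test, against 4.61% lower and 5.22% higher among all genes tested. Their median log2 fold change was −1.47, beside 0.0105 over all genes. The genes of ammonia capture and glutamate handling fell furthest together with the receptor gene Lgr5.

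Glul encodes glutamine synthetase, which joins ammonia to glutamate. It had 372, 269, 200.5 and 257 CPM in CA livers, against 1038, 1109.9, 909 and 1088 CPM in NC livers. Every CA library was below every NC library, and Glul was 3.77-fold lower in CA (log2 fold change −1.92 ± 0.16 SE, adjusted p = 3.27e-07). Slc1a2, which encodes the glutamate transporter that brings the substrate into these cells, had 35.8, 42.9, 27.4 and 23.7 CPM in CA livers, against 194, 171, 157 and 121 CPM in NC livers. It was 4.96-fold lower (log2 fold change −2.31 ± 0.20, adjusted p = 5.44e-07), the largest fall among the 10 genes. Oat, the ornithine aminotransferase that yields glutamate from ornithine, had 161, 152, 157 and 110.3 CPM in CA livers, against 510.1, 350.3, 341 and 510.2 CPM in NC livers. The groups again did not overlap (log2 fold change −1.56 ± 0.20, adjusted p = 3.19e-05). Rhbg, an ammonium transporter gene, had 2.11, 1.88, 0.394 and 1.49 CPM in CA livers, against 6.87, 4.57, 3.63 and 4.11 CPM in NC livers, with a log2 fold change of −1.72 ± 0.38 (adjusted p = 0.00578). All 4 calls held without any 1 of the 8 libraries, with adjusted p at most 3.59e-06 for Glul, 4.73e-06 for Slc1a2, 0.000274 for Oat and 0.031 for Rhbg.

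Adding cholesterol to cholic acid left these 4 genes nearer to chow. Glul had 682, 681, 677 and 823 CPM in Chol_CA livers, which all lay between the CA and the NC libraries. It was 2.61-fold higher in Chol_CA than in CA (log2 fold change 1.38 ± 0.16, adjusted p = 8.76e-06) and 1.45-fold lower than in NC (−0.53 ± 0.15, adjusted p = 0.0131). Slc1a2 had 117, 70.3, 131 and 125 CPM in Chol_CA livers, a level 3.42-fold above CA (log2 fold change 1.77 ± 0.20, adjusted p = 9.97e-06). Against NC its groups overlapped, and a call at adjusted p = 0.0486 was lost without NC_0, NC_1, NC_2 or Chol_CA_1 (adjusted p = 0.176, 0.106, 0.0901 and 0.17). Rhbg had 3.70, 7.89, 3.22 and 3.68 CPM in Chol_CA livers. It was 3.17-fold higher than in CA (log2 fold change 1.66 ± 0.37, adjusted p = 0.00343), and against NC its log2 fold change was −0.05 with an interval of −0.72 to 0.62. Oat had 309.7, 212, 155 and 187 CPM in Chol_CA livers. It stayed lower than in NC (log2 fold change −0.99 ± 0.19, adjusted p = 0.000674), and its rise over CA was small (0.57 ± 0.19, adjusted p = 0.0395). That rise was lost without CA_1, CA_2, CA_3, Chol_CA_0 or Chol_CA_1 (adjusted p = 0.063, 0.0882, 0.18, 0.255 and 0.0647). The comparisons of CA with NC and of Chol_CA with CA share the CA libraries, and those with NC share the NC libraries, so they are not independent of one another.

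**Figure D1:**
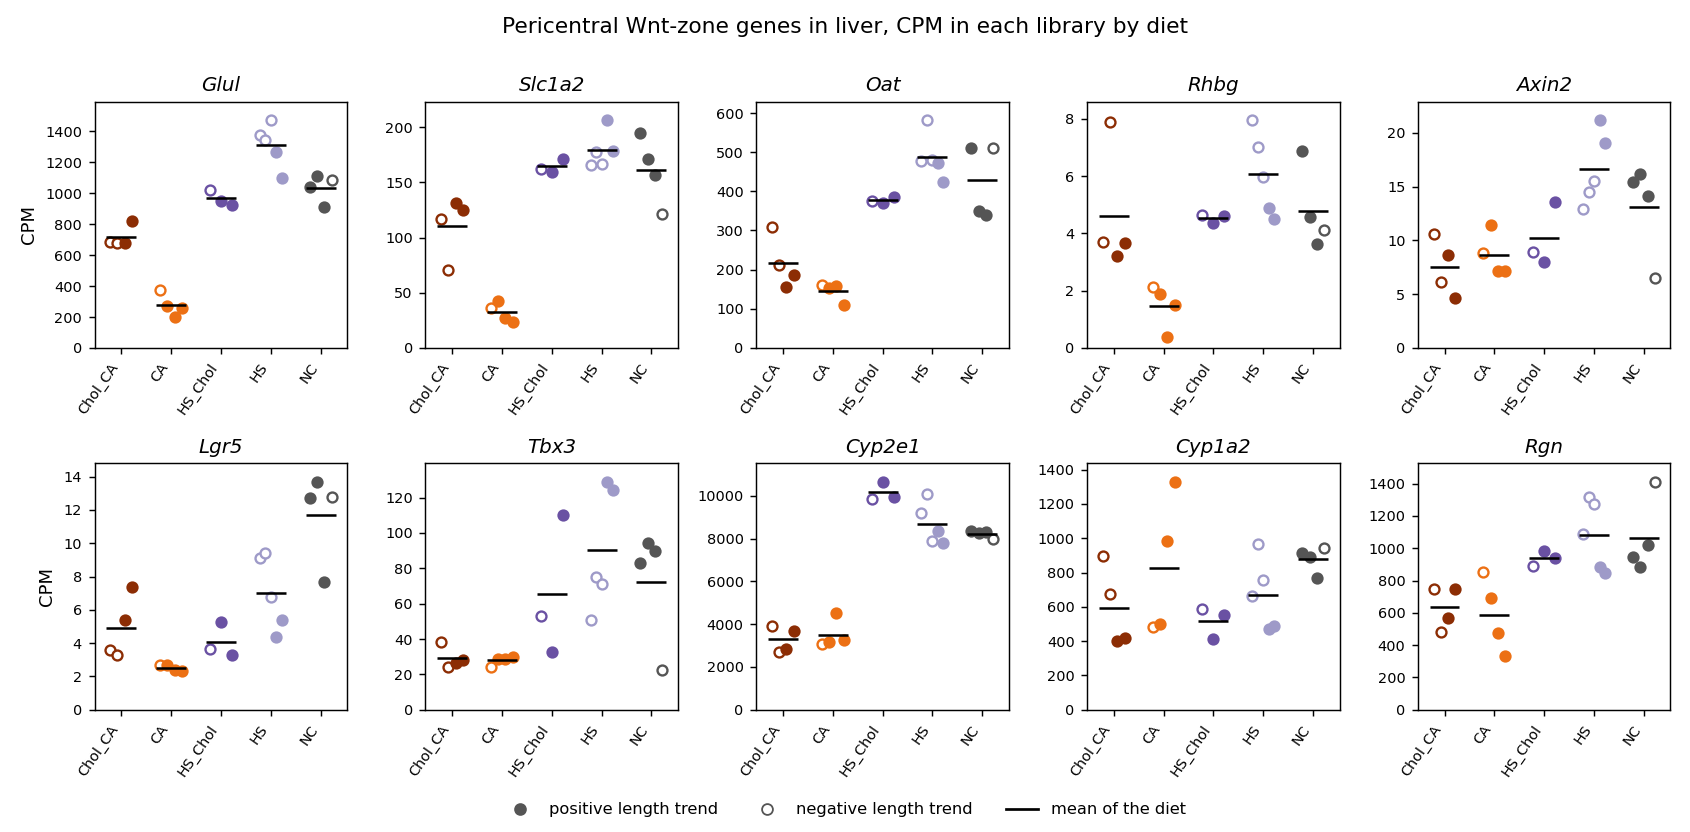
CPM of each of the 10 genes in each of the 20 libraries, by diet, on linear axes that start at 0. Bars are means. Open points are libraries with a negative length trend, relative to the mean of the 20 libraries. Glul lies at 677 to 823 CPM in Chol_CA, 200.5 to 372 CPM in CA and 909 to 1109.9 CPM in NC.

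The Wnt regulators fell less evenly. Lgr5, the R-spondin receptor gene that is itself a Wnt target, had 2.70, 2.71, 2.37 and 2.33 CPM in CA livers, against 12.7, 13.7, 7.64 and 12.8 CPM in NC livers. It was 4.62-fold lower (log2 fold change −2.21 ± 0.29, adjusted p = 5.18e-05), and leaving out any library moved the log2 fold change only between −2.37 and −2.12. In Chol_CA livers Lgr5 had 3.57, 3.32, 5.37 and 7.35 CPM. It was lower than in NC (log2 fold change −1.24 ± 0.27, adjusted p = 0.00187) and higher than in CA (0.96 ± 0.29, adjusted p = 0.0239). The rise over CA was lost without CA_2, CA_3 or Chol_CA_3 (adjusted p = 0.0806, 0.0755 and 0.113).

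Axin2, a scaffold of the complex that destroys beta-catenin and a general readout of Wnt signalling, had 8.80, 11.4, 7.20 and 7.11 CPM in CA livers, against 15.5, 16.2, 14.1 and 6.53 CPM in NC livers. The library NC_3 lay below all CA libraries, and the log2 fold change of −0.60 ± 0.28 was not called (adjusted p = 0.212). Without NC_3 Axin2 was called lower in CA (−0.83, adjusted p = 0.0419). In Chol_CA livers Axin2 had 10.6, 6.17, 8.68 and 4.65 CPM and was called lower than in NC (log2 fold change −0.80 ± 0.28, adjusted p = 0.0446), with overlapping groups. This call was lost without any 1 of NC_0, NC_1, NC_2, Chol_CA_1, Chol_CA_2 and Chol_CA_3, where the adjusted p lay between 0.0584 and 0.133.

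Tbx3, a transcription factor gene that marks the pericentral zone under Wnt, had 24.2, 28.9, 28.5 and 29.9 CPM in CA livers, against 82.8, 94.5, 89.6 and 22.7 CPM in NC livers. Here too NC_3 lay below all CA libraries while the other 3 NC libraries lay above all of them. The fall was called (log2 fold change −1.38 ± 0.39, adjusted p = 0.0272) but lost without any library other than NC_3, with adjusted p between 0.0607 and 0.0839. Without NC_3 the log2 fold change was −1.68 (adjusted p = 0.00243). In Chol_CA livers Tbx3 had 38.5, 24.2, 26.4 and 28.2 CPM, a log2 fold change of −1.30 ± 0.39 against NC (adjusted p = 0.0169), which was lost without NC_1, NC_2 or Chol_CA_1 (adjusted p = 0.0556, 0.0555 and 0.0521). Neither Axin2 nor Tbx3 was called between Chol_CA and CA, with log2 fold changes of −0.20 (interval −0.76 to 0.36) and 0.07 (−0.68 to 0.83).

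The level of Tbx3 moved with the sign of the length trend in some diets. In NC, Tbx3 had 82.8 to 94.5 CPM in the 3 libraries with a positive trend and 22.7 CPM in NC_3. In CA it had 28.5 to 29.9 CPM in the 3 libraries with a positive trend and 24.2 CPM in CA_0, a smaller gap in the same direction. In HS it had 124 and 129 CPM in the libraries with a positive trend, against 50.9 to 75.0 CPM in those with a negative one. The levels of the libraries with a positive and a negative trend overlapped in Chol_CA (26.4 to 28.2 and 24.2 to 38.5 CPM) and in HS_Chol (32.7 to 110.1 and 53.0 CPM). In HS every other member but Cyp2e1 was split by the trend as well. Axin2 and Slc1a2 were higher with a positive trend, and Glul, Oat, Rhbg, Lgr5, Cyp1a2 and Rgn were lower, Lgr5 with 4.35 to 5.39 CPM against 6.74 to 9.44 CPM. The share of all genes tested that was split in this way was not computed. The trend was itself computed from gene levels, so the split is not particular to the members. The 12 libraries with a positive trend were 3 of NC, 3 of CA and 2 each of Chol_CA, HS_Chol and HS. Among them, Axin2 was called lower in CA than in NC (log2 fold change −0.84, adjusted p = 0.0259) and in Chol_CA than in NC (−1.20, adjusted p = 0.00782). Tbx3 was called lower in both (−1.61 and −1.72). Glul (−2.07), Slc1a2 (−2.48), Oat (−1.52), Rhbg (−2.02) and Lgr5 (−2.20) also stayed lower in CA there. The part of library quality in the levels of the 10 genes was not tested further.

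The enzymes of the broader pericentral band split. Cyp2e1, the ethanol- and acetaminophen-oxidising cytochrome P450, was the most abundant of the 10 genes, with 3094, 3175, 4515 and 3246 CPM in CA livers, against 8338, 8257, 8310.4 and 7967 CPM in NC livers. It was 2.34-fold lower in CA (log2 fold change −1.23 ± 0.15, adjusted p = 2.38e-05). With cholesterol it had 3911, 2685, 2849 and 3692 CPM in Chol_CA livers, 2.50-fold below NC (log2 fold change −1.32 ± 0.15, adjusted p = 3.16e-06), and its difference from CA was −0.09 (interval −0.38 to 0.20, adjusted p = 0.723). Cyp2e1 was thus low on both cholic acid diets, while Glul, Slc1a2 and Rhbg were called between them.

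Rgn encodes regucalcin, the gluconolactonase of the ascorbate route. It had 855, 693, 475 and 330.4 CPM in CA livers, against 947, 884, 1020.5 and 1413 CPM in NC livers (log2 fold change −0.86 ± 0.24, adjusted p = 0.0268), a call that was lost without NC_2, NC_3, CA_2 or CA_3 (adjusted p = 0.0521, 0.0809, 0.0796 and 0.0799). In Chol_CA livers Rgn had 746, 483, 571 and 750.3 CPM, lower than in NC (−0.74 ± 0.24, adjusted p = 0.029), which was lost without NC_2, NC_3, Chol_CA_1 or Chol_CA_2 (adjusted p = 0.057, 0.103, 0.101 and 0.082). Cyp1a2, the caffeine-oxidising cytochrome P450 induced through the aryl hydrocarbon receptor, had 484, 502, 984 and 1330.2 CPM in CA livers, against 912, 889, 769 and 944 CPM in NC livers. The CA libraries spread above and below all NC libraries, and no difference was called (log2 fold change −0.09, interval −0.70 to 0.52). In Chol_CA livers Cyp1a2 had 894, 674, 399.9 and 416 CPM (log2 fold change against NC −0.56 ± 0.31, adjusted p = 0.219). Among libraries with a positive length trend it was called lower in Chol_CA, at −1.08 against NC (adjusted p = 0.0419) and −1.22 against CA (adjusted p = 0.0249). That fit held 2 Chol_CA libraries, at 399.9 and 416 CPM, while the 2 with a negative trend had 894 and 674 CPM.

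Together, 8 of the 10 genes were lower and 0 higher in Chol_CA than in NC livers, against 9.35% lower and 15% higher among all genes. The 8 were Glul, Slc1a2, Oat, Axin2, Lgr5, Tbx3, Cyp2e1 and Rgn, and their count fell to 5 without NC_1 and to 4 without NC_2 or without Chol_CA_1. Between Chol_CA and CA livers 5 of the 10, namely Glul, Slc1a2, Oat, Rhbg and Lgr5, were higher and 0 lower, against 13.4% higher and 7.8% lower among all genes. This count was 3 without CA_2 or without CA_3, when Oat and Lgr5 dropped out. Several of these calls also ended under other settings of the edgeR test. With only the 2 compared diets fitted, adjusted p was 0.114 for Rgn in CA against NC, 0.159 for Slc1a2 and 0.153 for Axin2 in Chol_CA against NC, and 0.131 for Oat and 0.0609 for Lgr5 in Chol_CA against CA. With no filter on low counts it was 0.0711 for Tbx3 in CA against NC and 0.0897 for Oat in Chol_CA against CA, and with a stricter filter 0.0575 for Oat. A term for the length trend left Axin2 uncalled in Chol_CA against NC (adjusted p = 0.059). Among libraries with a positive trend Slc1a2 (0.11) and Rgn (0.14) in Chol_CA against NC and Oat (0.301) in Chol_CA against CA had adjusted p above the threshold. Glul, Oat, Lgr5 and Cyp2e1 in both comparisons with NC kept their calls under each of these settings. So did Slc1a2 and Rhbg in CA against NC, and Glul, Slc1a2 and Rhbg in Chol_CA against CA. Tbx3 in Chol_CA against NC also did, though it was lost without single libraries as given above.

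**Figure D2:**
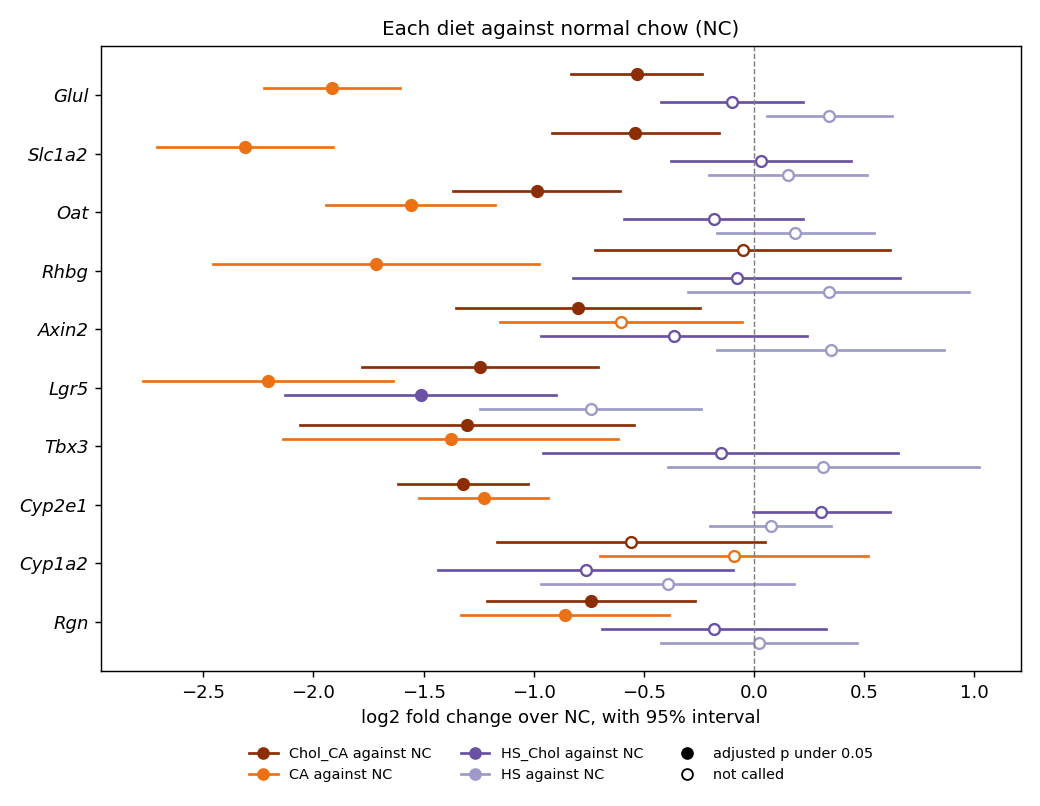
Log2 fold change of each of the 10 genes over NC on the 4 other diets, with 95% intervals; filled points have an adjusted p under 0.05. On CA, Slc1a2 (−2.31) and Lgr5 (−2.21) lie furthest left, and on Chol_CA Cyp2e1 (−1.32) does.

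On the sucrose diets few of the 10 genes were called, where few genes of any kind were. In HS livers 0 of the 10 genes were called by edgeR against NC in either direction, and 0 by DESeq2, while 0.214% of all genes were called higher and 0.437% lower, so the count of members is near that background. At an unadjusted p under 0.05 Glul was higher and Lgr5 lower. Glul had 1379, 1346, 1475, 1264 and 1101 CPM in HS livers (log2 fold change 0.34 ± 0.15, adjusted p = 0.377). Lgr5 had 9.10, 9.44, 6.74, 4.35 and 5.39 CPM in HS livers, and its log2 fold change of −0.74 ± 0.26 was not called (adjusted p = 0.25). Among libraries with a positive length trend, 2 of HS and 3 of NC, Lgr5 was called lower in HS (−1.22, adjusted p = 0.0354).

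In HS_Chol livers Lgr5 alone of the 10 was called against NC, as lower, where 0.564% of all genes were lower and 1.71% higher. It had 3.67, 5.28 and 3.28 CPM in HS_Chol livers, all below the lowest NC library (log2 fold change −1.51 ± 0.31, adjusted p = 0.00844), and the call was lost without HS_Chol_0 (−1.44, adjusted p = 0.0731). Kupffer cell markers were also higher in HS_Chol than in NC for 4 of 10 genes (median log2 fold change 1.68), and the 3 HS_Chol libraries are those with the high mitochondrial light-strand reads (673 to 900, against at most 83.4 elsewhere, on the scale above). The part of either in the level of Lgr5 was not tested. Cyp2e1 had 9874, 10664 and 9934 CPM in HS_Chol livers. All 3 lay above the NC libraries, but the difference was not called (log2 fold change 0.31 ± 0.16, adjusted p = 0.489). The remaining members were not called either, and Slc1a2, with 163, 159.7 and 171 CPM in HS_Chol livers, had a log2 fold change of 0.03 with an interval of −0.38 to 0.44. Cyp1a2 was called lower in HS_Chol when only these 2 diets were fitted (−0.75, adjusted p = 0.0371).

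The difference seen with added cholesterol was called as unequal on the 2 base diets for 4 of the 10 genes. Between HS_Chol and HS livers 0 of the 10 were called by edgeR and 0 by DESeq2, against 1.6% higher and 0.651% lower among all genes, and Glul, Axin2 and Lgr5 were lower at an unadjusted p under 0.05. The difference between the effect of cholesterol with cholic acid (Chol_CA minus CA) and that with sucrose (HS_Chol minus HS) was called positive for Glul, Slc1a2, Rhbg and Lgr5 and negative for 0 of the 10, where 2.47% of all genes were positive and 3.53% negative. For Glul the effects were 1.38 with cholic acid and −0.44 with sucrose, a log2 difference of 1.82 ± 0.22 (adjusted p = 3.07e-05). For Slc1a2 they were 1.77 and −0.12, a difference of 1.90 ± 0.29 (adjusted p = 0.000352). Rhbg differed by 2.08 ± 0.52 (adjusted p = 0.0219) and Lgr5 by 1.73 ± 0.43 (adjusted p = 0.0188). The call of Rhbg was lost without CA_3, HS_Chol_0 or HS_Chol_1 (adjusted p = 0.0503, 0.0522 and 0.0674) and among the libraries with a positive length trend (1.53, adjusted p = 0.116). That of Lgr5 was lost without HS_Chol_0 or HS_Chol_2 (adjusted p = 0.0568 and 0.0585), so that 2 of the 10 were called without HS_Chol_0. Oat missed the threshold (0.94 ± 0.28, adjusted p = 0.0501), and passed it without CA_0, Chol_CA_2 or Chol_CA_3 (adjusted p = 0.0351, 0.0211 and 0.0475) and in DESeq2 (0.94, adjusted p = 0.0194). All 4 differences rest on the 3 HS_Chol libraries with the high light-strand reads, and whether the strand counted in them differed is not given in the sources used here. Reads on the 10 genes made up 1.26% to 1.34% of all reads in HS_Chol and 1.07% to 1.32% in HS. Most of these reads were of Cyp2e1, so the share says little about the 4 genes. In HS_Chol_0 Cyp2e1 had 61909 reads, Glul 6415, Slc1a2 1019, Rhbg 29 and Lgr5 23. The part of the strand in the differences was not tested. Cyp2e1 (−0.32, interval −0.74 to 0.09) and Cyp1a2 (−0.10, interval −0.97 to 0.78) were not called.

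**Figure D3:**
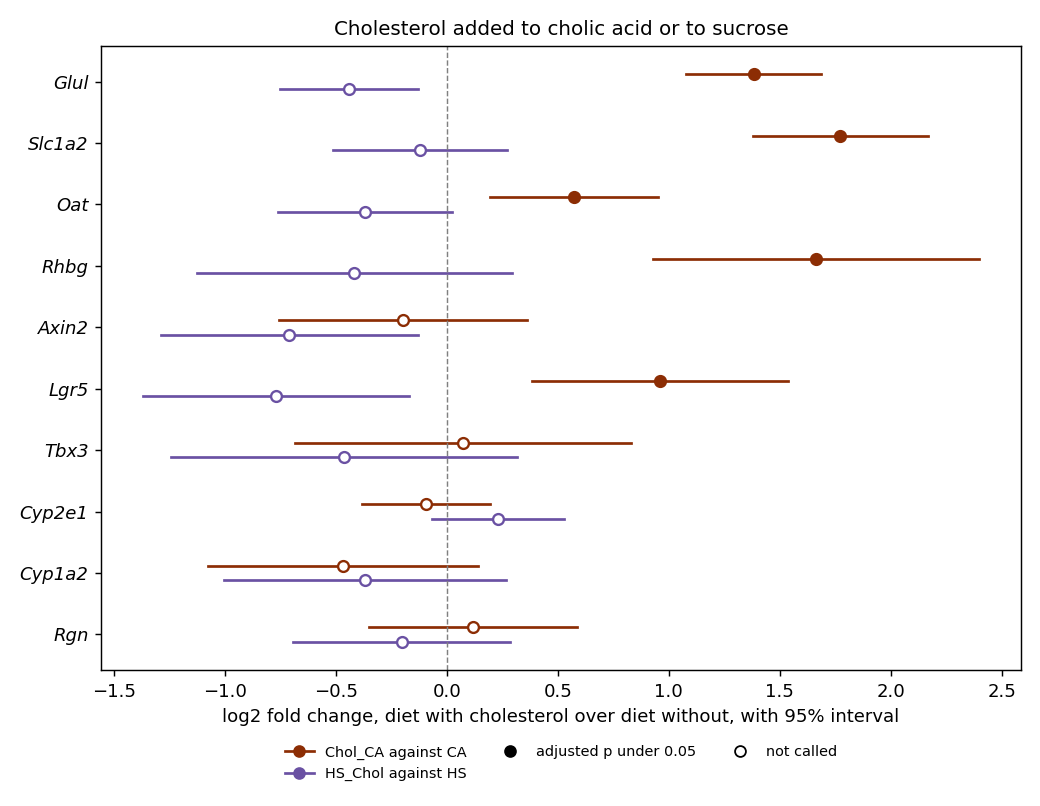
Log2 fold change of each gene between a diet with and the same base without cholesterol, on cholic acid (Chol_CA against CA) and on sucrose (HS_Chol against HS), with 95% intervals; filled points have an adjusted p under 0.05. Glul (1.38 and −0.44) and Slc1a2 (1.77 and −0.12) lie apart, while Cyp2e1 (−0.09 and 0.23) lies close.

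The order of diets differed between genes. CA was the lowest diet for Glul, Slc1a2, Oat, Rhbg, Lgr5, Tbx3 and Rgn, and its libraries did not overlap those of the next diet for Glul, Slc1a2, Rhbg and Lgr5. HS was the highest diet for Glul, Slc1a2, Oat, Rhbg, Axin2, Tbx3 and Rgn, but in each case its libraries overlapped those of the diet next below. Lgr5 and Cyp1a2 were highest in NC, and Cyp2e1 in HS_Chol. The share of all genes tested with the same order of diets or the same lack of overlap was not computed.

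Of the Wnt pathway itself 1 of 5 tested ligand genes, 1 of 11 receptor genes and 0 of 16 intracellular components were called lower in CA than in NC, and 0 higher, beside 4.61% lower and 5.22% higher among all genes. These genes and the lists below were chosen by known function, with earlier results of these data known, so their counts are descriptions. Of 7 Wnt ligand and R-spondin genes 5 were tested. Wnt4 was called lower in CA than in NC (log2 fold change −1.40 ± 0.33, adjusted p = 0.00967), with 1.38 ± 0.47 CPM in CA livers and 3.64 ± 1.60 CPM in NC livers (SD, n = 4 each), and it was higher in Chol_CA than in CA (1.37 ± 0.33, adjusted p = 0.00544). The ligands that the central vein endothelium is known for were not called in CA against NC: Wnt2 had a log2 fold change of −0.37 ± 0.37, Wnt9b of 0.44 ± 0.41 and Rspo3 of −0.41 ± 0.31. At 1.54 to 5.96 CPM on average in NC these 3 genes were sparse, and the intervals reach from −1.09 to 0.34 for Wnt2, −0.36 to 1.24 for Wnt9b and −1.02 to 0.20 for Rspo3.

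Among 11 receptor and ubiquitin ligase genes, Lgr4, another R-spondin receptor gene, was lower in CA (log2 fold change −0.62 ± 0.18, adjusted p = 0.035) and in Chol_CA (−0.77 ± 0.18, adjusted p = 0.00382) than in NC. Znrf3, which encodes a ligase that removes Frizzled receptors and is a Wnt target, was lower in Chol_CA (−0.71 ± 0.21, adjusted p = 0.0172). Of 16 intracellular and secretory components 0 were called in CA and 1 in Chol_CA, both against NC. Among all genes 15% were higher and 9.35% lower in Chol_CA. The component called there was Wls, which carries Wnt proteins to the cell surface (1.01 ± 0.20, adjusted p = 0.000801). The beta-catenin gene Ctnnb1 had 159 ± 22.3 CPM in CA livers and 185 ± 36.1 CPM in NC livers (log2 fold change −0.22 ± 0.19, adjusted p = 0.583). Dvl2, a Wnt signal transducer gene, was called higher in HS_Chol than in NC (2.51 ± 0.27, adjusted p = 6.17e-06). It shares 1151 exon bases with Acadvl on the opposite strand, and the HS_Chol libraries are those with the high light-strand reads, so its reads and those of Acadvl cannot be told apart.

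Of 8 tested Wnt target genes outside the member list, 2 were lower and 1 higher in CA than in NC, beside 4.61% lower and 5.22% higher among all genes. Sp5, a transcription factor gene induced directly by beta-catenin, was lower in CA (log2 fold change −1.76 ± 0.40, adjusted p = 0.00705), as was Notum, which encodes a secreted inhibitor of Wnt proteins (−0.70 ± 0.18, adjusted p = 0.0126). Sp5 was sparse, with 32 reads over the CA libraries. Its range was 0.743 to 1.06 CPM in CA livers and 0.993 to 5.29 CPM in NC livers, so the groups overlapped. Ccnd1, the cyclin D1 gene, was higher, with 132 ± 45.4 CPM in CA livers and 39.3 ± 13.9 CPM in NC livers (1.75 ± 0.31, adjusted p = 0.00108). Sp5 (−1.18) and Ccnd1 (1.23) were called in the same directions in Chol_CA, where 2 were lower and 2 higher in all. Among all genes 9.35% were lower and 15% higher in Chol_CA.

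Other pericentral genes also split. Of 26 listed, 12 were lower and 5 higher in CA than in NC, with a median log2 fold change of −0.66. In Chol_CA 14 were lower and 4 higher, with a median of −0.75. Among all genes 4.61% were lower and 5.22% higher in CA, and 9.35% lower and 15% higher in Chol_CA. Gulo, the last enzyme of ascorbate synthesis, was lower in CA (log2 fold change −1.83 ± 0.18, adjusted p = 2.48e-06), and Cyp7a1, whose enzyme sets the pace of bile acid production, had 0.486 ± 0.598 CPM in CA livers and 53.8 ± 17.5 CPM in NC livers. Rdh16, a retinol dehydrogenase gene, fell in Chol_CA (−3.07 ± 0.26, adjusted p = 1.93e-07). The 5 that rose in CA were the detoxification genes Gstm3, Gstm1, Cyp2a5, Cyp3a11 and Cyp2c29, with log2 fold changes between 1.58 and 5.88; they were named after their values were seen. The summed level of the 26 was higher in CA, at 28231 to 55864 CPM, against 13655 to 17922 CPM in NC. In HS 2 of the 26 were lower than in NC and 0 higher (median −0.39), beside 0.437% lower and 0.214% higher among all genes. In HS_Chol 0 of the 26 were called (median −0.18), beside 0.564% lower and 1.71% higher among all genes. The 2 called in HS were Cyp3a11, with 516 ± 211 CPM in HS livers (SD, n = 5) and 3612 ± 560 CPM in NC livers (SD, n = 4), and Cyp2c29, with 701 ± 150 CPM in HS livers and 1994 ± 38.2 CPM in NC livers.

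On the portal side, 21 periportal genes had a median log2 fold change of 0.0018 in CA against NC, with 4 higher and 2 lower. Among all genes 5.22% were higher and 4.61% lower in CA, and 15% higher and 9.35% lower in Chol_CA. The steroid dehydrogenase gene Hsd17b6 rose in CA (3.08 ± 0.28, adjusted p = 9.41e-07), and the gluconeogenic Fbp1 fell (−0.75 ± 0.15, adjusted p = 0.00216). In Chol_CA 9 of the 21 were lower and 2 higher than in NC (median −0.45). Gls2, the periportal glutaminase gene that releases the ammonia used for urea, was among the lower ones (−0.93 ± 0.14, adjusted p = 4.62e-05), and in CA its log2 fold change was −0.42 (adjusted p = 0.0629). Of 15 tested genes of glutamine, glutamate and ammonia metabolism outside the member list, which include Gls2, 2 were lower and 1 higher in CA and 6 lower and 2 higher in Chol_CA. The 6 included Aldh4a1 (−0.81 ± 0.15), a proline breakdown gene, and the amino acid carrier Slc38a2 (−1.32 ± 0.26). Of 6 tested genes of the aryl hydrocarbon receptor, only Nqo1 was called in CA, as higher (2.41 ± 0.44, adjusted p = 0.00128). In Chol_CA Cyp1b1 was higher (2.04 ± 0.46) and the receptor gene Ahr lower (−1.16 ± 0.28). The medians of these genes were 0.16 in CA and −0.19 in Chol_CA. Cyp1a1 was called on neither diet, with means of 1.01 CPM in NC, 0.927 CPM in CA and 0.792 CPM in Chol_CA. Of 5 midlobular genes, Cyp8b1 (−8.76 ± 0.36) and Mup3 (−3.25 ± 0.53) were lower in CA, and 1 was lower in Chol_CA.

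**Figure D4:**
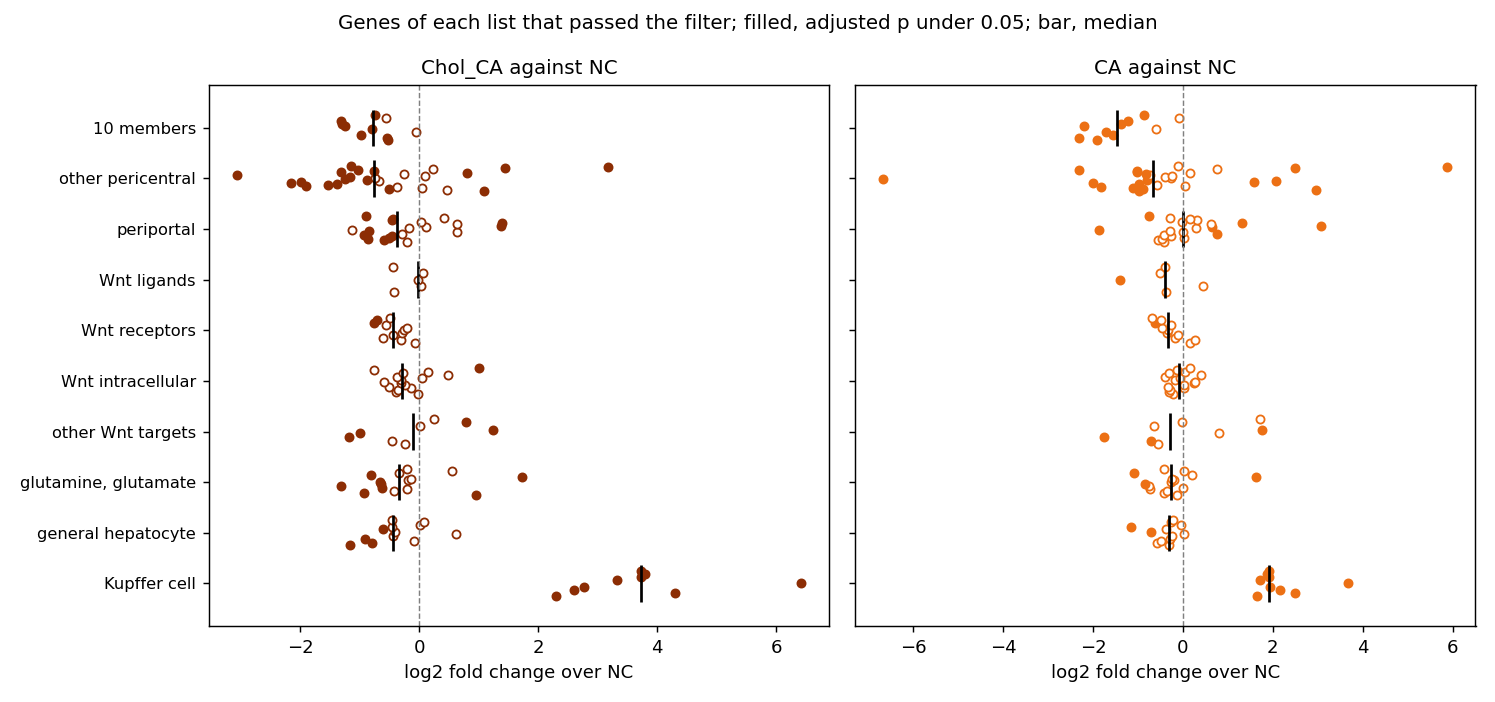
Log2 fold changes over NC of the 10 genes and of the tested genes of 9 lists, in Chol_CA (left) and CA (right); each point is a gene, filled where the adjusted p is under 0.05, and bars are medians. In CA the members have a median of −1.47, the periportal genes of 0.0018 and the Kupffer cell markers of 1.93.

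Markers of other cells differed between the diets. Among all genes tested, 5.22% were higher and 4.61% lower in CA than in NC, and 15% higher and 9.35% lower in Chol_CA. Of 12 general hepatocyte genes 2 were lower in CA than in NC (median log2 fold change −0.31) and 4 in Chol_CA (median −0.45). The medians of the 10 members were −1.47 in CA and −0.77 in Chol_CA, and the difference between the lists was not tested. All 10 Kupffer cell markers were higher in CA (median 1.93) and in Chol_CA (median 3.73), and 4 of the 10 in HS_Chol (median 1.68), where 1.71% of all genes were higher. The summed level of the Kupffer cell markers ran from 1035 to 2933 CPM in Chol_CA, 270.4 to 847 CPM in CA, 264 to 683 CPM in HS_Chol, 139 to 357 CPM in HS and 111 to 179.6 CPM in NC. Markers of recruited macrophages were higher for 3 of 8 genes in CA and for 8 of 8 in Chol_CA, with sums of 415 to 1850.4 CPM in Chol_CA, 82.9 to 196 CPM in CA and 43.4 to 73.1 CPM in NC. Stellate cell and fibroblast markers were higher for 4 of 8 in Chol_CA and for 0 of 8 in CA, where 1 was lower. Bile duct markers were higher for 2 of 5 and lymphocyte markers for 4 of 5 tested in Chol_CA, against 0 of 5 each in CA.

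Of 8 central vein endothelial markers, which include Wnt2, Wnt9b and Rspo3, 1 was called in CA, Lhx6 (1.86 ± 0.30), and 0 in Chol_CA. Sinusoidal endothelial markers were higher for 3 of 8 in Chol_CA and 0 of 8 in CA, beside 15% and 5.22% of all genes. No defining marker of these liver cell lists was at 0 reads throughout a diet. Adipose markers summed to 2.79 to 110.0 CPM in HS_Chol and to at most 3.83 CPM in any other library, and pancreatic markers to at most 19.2 CPM in any library, with 4 of 6 at 0 reads in every diet. Glul was lowest in CA, where Kupffer and macrophage sums were below those of Chol_CA, and the part of cell composition in the levels of the 10 genes was not tested.

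The genes with the profile most like Glul over the 20 libraries were found among 9363 genes of at least 5 CPM, by the root mean square difference of log2 CPM centred on each gene's mean. Gulo was closest (0.168), followed by Hao1 (0.294), the glycolate oxidase gene, Ccdc162 (0.317), Slc1a2 (0.322) and Cyp4f14 (0.338), a cytochrome P450 gene. Oat was at rank 17, and Axin2, Tbx3 and Cyp1a2 lay at differences of 0.753, 0.761 and 1.03. Gulo had 307 ± 51.6 CPM in Chol_CA, 113 ± 34.0 in CA, 389 ± 44.8 in HS_Chol, 541 ± 62.5 in HS and 399 ± 48.9 in NC (SD). The 20 libraries share the diet differences described above, so this likeness is a description with no test.

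For Cyp2e1 the closest genes were the fatty acid transporter gene Slc27a2 (0.323), the glycogen synthase gene Gys2 (0.331), Igfals (0.34), the transcription factor gene Cebpa (0.348) and Fbp1 (0.349). Fbp1 is one of the periportal genes above. None of the 5 was a member, and Oat was the nearest of those at rank 10. Slc27a2 had 736 ± 88.9 CPM in Chol_CA, 890.1 ± 94.6 in CA, 1601 ± 61.9 in HS_Chol, 1396 ± 87.3 in HS and 1348 ± 79.4 in NC, and so was low on both cholic acid diets like Cyp2e1.

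**Figure D5:**
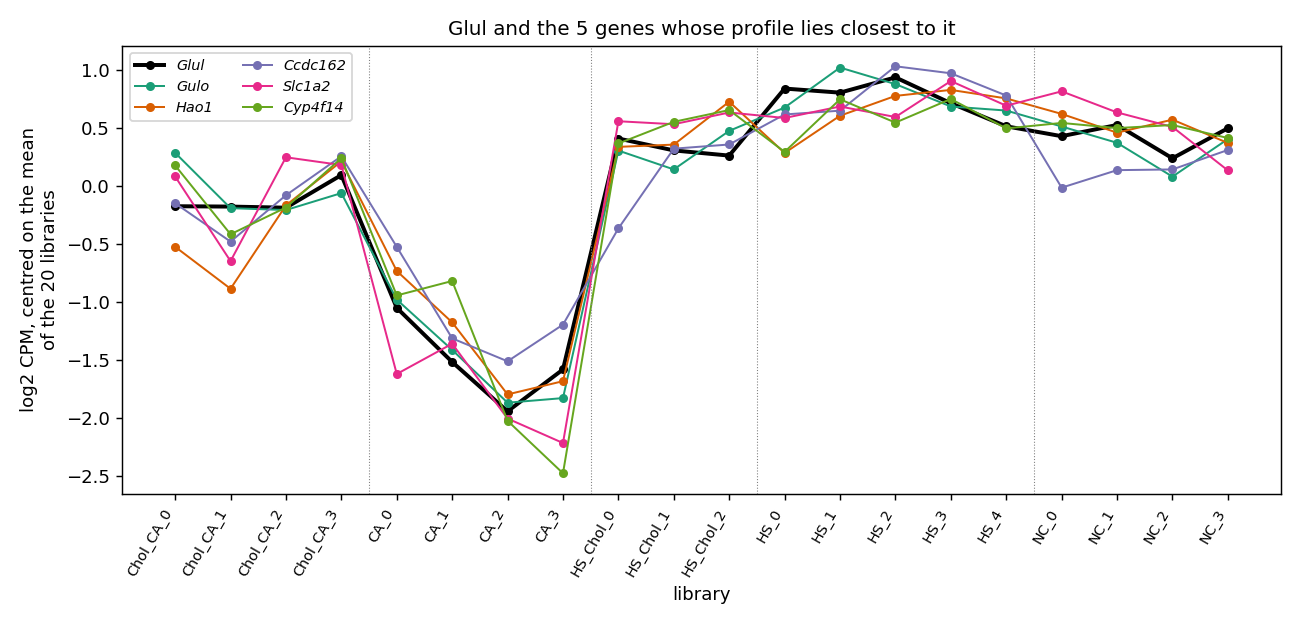
Log2 CPM of Glul and the 5 genes closest to it, each centred on its mean over the 20 libraries; lines join the points of 1 gene and libraries of a diet have no order. Gulo follows Glul most closely (root mean square difference 0.168), and in Glul and 4 of the other 5 genes every CA library lies below all others, while Hao1 is lower in Chol_CA_1 than in CA_0.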

How the data were processed

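Total liver RNA was made into TruSeq Stranded Total RNA libraries and read from 1 end, per the labels' protocols. The authors deposited 1 table of raw counts of reads per gene symbol; per the submitters' processing notes reads were aligned to mm10 with STAR 2.6.1c, and per the series' design text the same tool counted them. Which strand was counted is not given in the sources used here. Of 23 value columns, 20 were matched to a diet by name and 3 matched no label and were not used. The table numbers libraries from 0 and the labels from 1, so no column was matched to a single labelled sample; library numbers are the table's. HS_Chol had 3 columns for 4 labelled samples. A sixth labelled diet, which joined sucrose to cholesterol and cholic acid, matched no column and was not analysed here.

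The test of counts was that of edgeR 4.0.16 (R 4.3.3), after TMM scaling and filterByExpr by diet, which kept 12595 genes. Dispersions were robust, and the quasi-likelihood model gave each diet a mean, with all 20 libraries in 1 fit. Genes were called at a Benjamini-Hochberg adjusted p under 0.05 over all genes tested. SE is the log2 fold change divided by the square root of its F statistic, and SD is between libraries. The 95% intervals follow from SE by the normal distribution, which makes them narrower than the F-test implies. CPM are counts per 1000000 over TMM-scaled library sizes, with no prior count; log2 CPM for profiles used a prior count of 1. Depth limits low genes: 3 reads over a diet correspond to 0.0821 CPM in CA and to 0.158 CPM in HS_Chol, counting error only. The length trend of a library is the sign of the rank correlation, over 11979 protein-coding genes, of centred log2 CPM with exon length. Gene models came from GENCODE (GRCm38), and promoters from RefSeq. The procedure was tested on simulated counts.

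The members and the gene lists were chosen with earlier results of these data known. Named genes were all 10 members, up to 3 called genes of smallest adjusted p per list over the comparisons with NC, and the 5 genes closest in profile to Glul and to Cyp2e1; a few others are named to give a count its members or as known parts of the pathway. Alternatives were size factors and the test of DESeq2 1.42.0, no filter, a stricter filter (1 CPM in 3 libraries), the compared diets alone, each library left out, a term for the length trend, and libraries with a positive length trend only.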

Additional observations from a re-analysis of the deposited data

Results flagged for a closer look

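Single libraries stood apart from the rest of their diet in 5 of the 40 combinations of a gene and a diet of 4 or 5 libraries, where chance gives about 1 in 20. Glul had 823 CPM in Chol_CA_3, above the other 3 Chol_CA libraries at 677 to 682 CPM. Rhbg had 7.89 CPM in Chol_CA_1, against 3.22 to 3.70 CPM in the other Chol_CA libraries. Cyp2e1 had 4515 CPM in CA_2, against 3094 to 3246 CPM in the other CA libraries. Lgr5 had 7.64 CPM in NC_2, against 12.7 to 13.7 CPM in the other NC libraries. Tbx3 had 22.7 CPM in NC_3, against 82.8 to 94.5 CPM in the other NC libraries.

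The log2 change with cholesterol differed between the cholic acid base and the sucrose base, by the interaction test in edgeR, for 4 of the 10 genes. Among all genes 2.47% were called positive and 3.53% negative. The difference was 1.82 for Glul, 1.90 for Slc1a2, 2.08 for Rhbg and 1.73 for Lgr5. The calls of Rhbg and Lgr5 were lost without single libraries, as given above. All of these differences rest on the HS_Chol libraries with the high light-strand reads.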

How the results depend on the processing

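No paired analysis was possible because the count table numbers its libraries from 0 and the labels from 1, so no column could be matched to a numbered sample. Over the alternatives that left out no single library, 169 of 182 settings of a called gene among the 10 kept the call and its direction and 13 lost it. Over single libraries left out, 197 of 239 kept it and 42 lost it, and no called gene changed sign in either set. The cause of the changes below was not tested, except that fewer libraries enter where libraries or diets are left out and more genes enter with no filter.

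The sizes of the gene lists called over all genes moved most. DESeq2 called 60 genes higher and 145 lower in HS against NC (27 and 55 in edgeR), 355 and 163 in HS_Chol against NC (216 and 71), 164 lower in HS_Chol against HS (82) and 476 positive interactions (311). With no filter 358 were higher in HS_Chol against NC and 346 in HS_Chol against HS (201). With only the compared diets fitted, 701 were lower in Chol_CA against NC (1178), and 1063 were higher and 523 lower in Chol_CA against CA (1693 and 983). That fit also called 2 of the 10 genes lower in HS_Chol against NC (1) and 3 higher in Chol_CA against CA (5). A term for the length trend gave 49 higher and 94 lower in HS, 344 and 159 in HS_Chol, and 1069 and 930 in CA (657 and 581), all against NC, and 305 and 133 in HS_Chol against HS. The libraries with a positive length trend gave 186 and 193 in HS, 376 and 241 in HS_Chol and 1521 and 1445 in CA against NC, 1716 lower in Chol_CA against CA, and 577 positive and 839 negative interactions (311 and 445). Among them 1 of the 10 genes was lower in HS against NC and 1 in Chol_CA against CA (0 in each with all libraries).

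Log2 fold changes that changed sign were all uncalled. The stricter filter gave −0.0017 for Rgn in HS and −0.0019 for Slc1a2 in HS_Chol against NC, and the trend term −0.096 for Rgn in HS. Positive-trend libraries gave −0.089 for Rhbg, −0.040 for Cyp2e1 and −0.13 for Rgn in HS, −0.074 for Slc1a2 and 0.021 for Rgn in HS_Chol, and 0.13 for Cyp1a2 in CA, against NC. They gave 0.018 for Cyp1a2 and 0.15 for Rgn in HS_Chol against HS, and −0.10 for Tbx3 in Chol_CA against CA.

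With 1 library left out at a time, counts ran from 6 to 58 higher and 29 to 100 lower in HS, 36 to 82 lower in HS_Chol and 376 to 685 higher in CA, against NC. They ran from 33 to 80 lower in HS_Chol against HS, 960 to 1939 higher in Chol_CA against CA, and 130 to 608 positive and 318 to 707 negative interactions. Of the 10 genes, 0 to 1 were lower in HS_Chol and 4 to 8 in Chol_CA against NC, 3 to 5 were higher in Chol_CA against CA, and 2 to 5 had positive interactions. Genes that changed sign ranged from −0.067 to 0.18 for Rgn in HS, −0.092 to 0.13 for Slc1a2, −0.20 to 0.14 for Rhbg and −0.75 to 0.14 for Tbx3 in HS_Chol, −0.42 to 0.096 for Cyp1a2 in CA and −0.43 to 0.19 for Rhbg in Chol_CA, against NC. In Chol_CA against CA they ranged from −0.12 to 0.16 for Tbx3, −0.23 to 0.0062 for Cyp2e1 and −0.13 to 0.35 for Rgn, and the interaction of Cyp1a2 from −0.38 to 0.19. Depth limits Axin2, Lgr5 and Rhbg. The planned comparisons with the sixth diet were not run.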
